A study of Mus musculus with 12 samples.

Results

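Across 12 RNA sequencing libraries from mouse large intestine, 38 genes of DNA damage signalling and repair were followed, out of 28793 genes in the deposited table. They were chosen by symbol from what their products do, with earlier results of these data known. Every one of the 38 had a row in the table. All mice were C57BL/6 aged 3 months and differed in mTert, the gene for the reverse transcriptase subunit of telomerase. The 5 groups were GFP-sorted cells of the crypt base from mTert heterozygous mice (3 libraries) and from mTert null mice of generation 3 (3 libraries, null G3), and unsorted crypt epithelium from heterozygous mice (2 libraries), from null mice of generation 4 (2 libraries, null G4) and from generation 4 mice labelled as having telomerase reactivated (2 libraries, reactivated). The column names of the reactivated libraries carry the tag "G4tam", and the labels state neither the allele, the agent and its dose, nor the driver of the GFP. Libraries of a group are called biological replicates without the animals being named, so a p-value here reflects the scatter among libraries alone, which could be technical. Values are RPKM, read counts scaled by gene length and library size. Tests were run with limma on log2(RPKM + 1), with 0.05 as the limit for an adjusted p.

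Chromosome ends that can no longer be protected by telomere repeats are read by the cell as DNA breaks. Breaks are bound by the complex of Mre11a, Rad50 and Nbn, which activates the kinase Atm, and single-stranded DNA calls in Atr with its partner Atrip; both kinases phosphorylate the histone H2afx and the checkpoint kinases Chek1 and Chek2. The ends are then either joined directly through the Ku proteins (Xrcc5 and Xrcc6), Prkdc, Xrcc4 and Lig4, or resected and repaired from a sister copy through Brca1, Brca2 and their partners. Many genes of the second route, of the Fanconi pathway and of replication fork protection are transcribed mainly in cells that replicate DNA, and crypts are among the fastest renewing tissues of the body. For that reason 15 of the 38 genes were marked as known to vary with the cell cycle (Brca1, Brca2, Bard1, Chek1, Blm, Exo1, Rad54l, Fanca, Fancd2, Fanci, Clspn, Tipin, Timeless, Topbp1 and H2afx) and read beside 81 other cycling genes.

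The stretch of 250 bases before the RefSeq start site (GRCm38.p6) was available for 28 of the 38 genes and is shown for 4 of them. Atr is the gene that passed the test in null G4 crypts. Chek2, Xrcc6 and Brca2 hold a spelling of the site of E2F factors, the regulators of replication genes, and the last of these is a cell-cycle gene while the other two are not in that list. Atr lies at chr9:95857347-95857596, Chek2 at chr5:110839733-110839982, Xrcc6 at chr15:82016119-82016368 and Brca2 at chr5:150522371-150522620, all on the + strand. Capitals mark the word TTTCCCGC, which reads as GCGGGAAA here because it lies on the opposite strand.
Atr: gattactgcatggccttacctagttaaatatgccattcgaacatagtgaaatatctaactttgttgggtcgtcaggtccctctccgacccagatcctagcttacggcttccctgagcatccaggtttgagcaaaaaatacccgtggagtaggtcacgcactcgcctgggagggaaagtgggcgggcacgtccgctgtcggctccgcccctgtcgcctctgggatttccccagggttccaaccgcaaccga
Chek2: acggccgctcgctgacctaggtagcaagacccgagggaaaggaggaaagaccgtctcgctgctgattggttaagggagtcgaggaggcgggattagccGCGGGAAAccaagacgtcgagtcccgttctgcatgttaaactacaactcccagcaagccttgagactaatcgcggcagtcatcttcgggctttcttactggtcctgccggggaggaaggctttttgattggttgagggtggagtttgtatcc
Xrcc6: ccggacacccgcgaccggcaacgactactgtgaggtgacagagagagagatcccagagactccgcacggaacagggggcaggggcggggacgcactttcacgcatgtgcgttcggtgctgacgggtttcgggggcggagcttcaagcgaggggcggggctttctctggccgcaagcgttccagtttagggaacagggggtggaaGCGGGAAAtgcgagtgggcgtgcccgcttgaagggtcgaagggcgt
Brca2: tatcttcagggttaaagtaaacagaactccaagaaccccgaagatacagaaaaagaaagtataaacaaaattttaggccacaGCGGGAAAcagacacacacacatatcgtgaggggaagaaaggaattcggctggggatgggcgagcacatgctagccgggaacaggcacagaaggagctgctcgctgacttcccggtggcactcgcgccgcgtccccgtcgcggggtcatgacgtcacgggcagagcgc
The words TTTCCCGC, TTTGGCGC, TTTCGCGC and TTTGCCGC were searched on both strands. At least 1 of the 4 was present in 6 of 28 genes (21.4%), against 1.86% of all 32851 promoter windows of the same length. A gene was counted if any of its windows held a word, whereas the background counts single windows, so the 2 shares are not strictly alike. TTTCCCGC was found in Bard1, Brca2, Chek2, Mdc1 and Xrcc6 and TTTCGCGC in Topbp1, so the 6 comprised 3 of 11 cell-cycle genes and 3 of 17 others. The CCAAT word was present in 12 of 28 genes (42.9%) against 33.8% of all windows, with the same limit. These are matches of letters and not measured binding. Rad50, Nbn, Wrn, Exo1, Rbbp8, H2afx, Rif1, Prkdc, Fancd2 and Tipin had no entry.

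The libraries were deep but not alike. The smallest RPKM steps implied a depth of 75.3 to 104 M reads per unsorted library and, less certainly, of 164 to 247 M reads per sorted one. As a check of the labels, unsorted heterozygous libraries had Tert at 0.459 and 0.251 RPKM; null G4 libraries had 0.00778 and 0.0377, and the reactivated pair, at 0.0171 and 0.0311, did not exceed them. For sorted cells the 3 heterozygous values of Tert were 0.0424, 0.0583 and 0.169 RPKM and the null G3 values 0, 0.0787 and 0.00131, of which the second overlapped the heterozygous range. Transcripts of the Y-linked genes Ddx3y, Eif2s3y, Kdm5d and Uty summed to 18.3 and 18.9 RPKM in unsorted heterozygous libraries and 18.2 in reactivated library 2, but to at most 0.0148 in both null G4 libraries and reactivated library 1. Null G4 and heterozygous crypts therefore differ in Y-linked expression as well as in genotype, and the 2 cannot be told apart between those groups. The library labelled null G3 replicate 1 stood apart: it had 5424 genes at RPKM 1 or more against 7721 to 9144 in the other sorted libraries, and markers of small intestinal enterocytes summed to 6740 RPKM there against 92.7 to 142. In sorted cells the Y-linked sum was 8.54 RPKM in null G3 library 2 and at most 0.0562 in the other 5 libraries, so the null G3 group is mixed in this respect and the heterozygous one is not. Mitochondrial ribosomal RNA took 38.7% to 53.6% of the summed RPKM in sorted heterozygous and 46.8% to 71.9% in null G3 libraries. In unsorted crypts the heterozygous pair had shares of 19.2% and 27.3%, the null G4 pair 12% and 11.9%, and the reactivated pair 10.8% and 16.7%.

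In unsorted crypts 37 of the 38 repair genes were higher in both null G4 libraries than in either heterozygous library, with Lig4 the exception. That pattern was shared by most of the transcriptome: 74.7% of the 11464 genes tested were higher without overlap. The ratio of mean RPKM between null G4 and heterozygous crypts had a median of 1.61 over the 38 genes, from 1.08 for Lig4 to 2.3 for Clspn, against 1.38 over all tested genes (quartiles 1.15 and 1.6). It was 2.01 over the 15 cell-cycle genes and 1.49 over the other 23, beside 1.97 for 39 S phase genes and 2.31 for 40 genes of G2 and mitosis. Of the repair genes 1 passed the test, Atr, against 4.97% of all tested genes passing in that direction. A filter on low values left 35 of the 38 genes to test; Palb2, Rad51c and Rnf8 were not tested, and Chek1, Brca2, Rad54l, Blm, Exo1, Fancd2, Fanci and Xrcc4 entered with both heterozygous libraries under 1 RPKM, so that counts over the tested genes support nothing by themselves. In bulk tissue fewer cells of a type and less RNA per cell cannot be told apart. RPKM is relative to the library, and the share of mitochondrial ribosomal RNA was lower in both null G4 libraries than in both heterozygous ones. With each unsorted library rescaled to the same summed RPKM outside that RNA, an alternative added after seeing the data, 36 of 38 repair genes were higher without overlap (69.4% of 11442 tested genes). The median ratio was then 1.51, against 1.29 for all tested genes, 1.84 for S phase genes and 2.17 for genes of G2 and mitosis, and 0 repair genes passed, where 362 genes passed as higher.

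**Figure D1:**
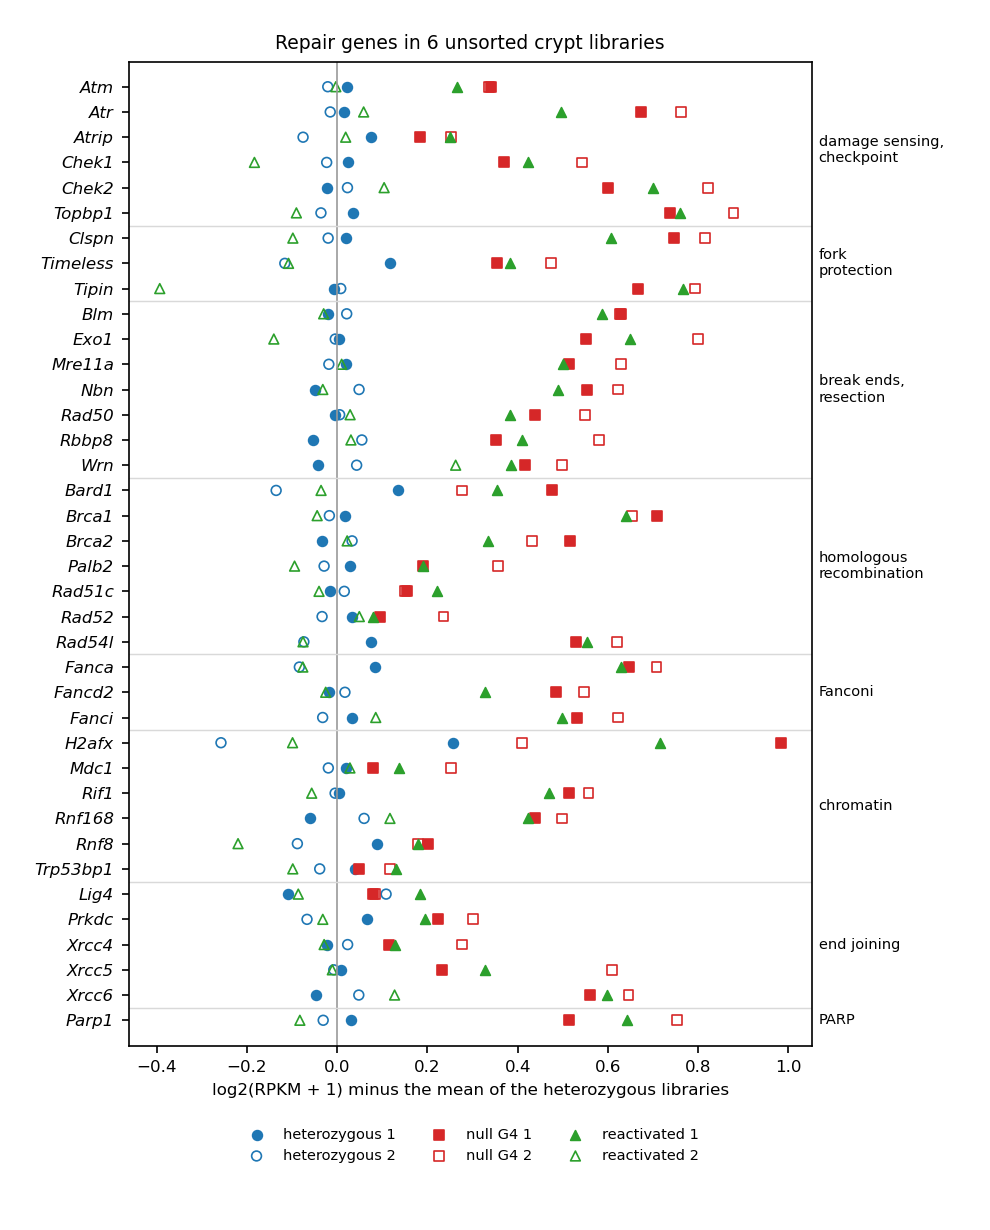
Level of each of the 38 genes in the 6 unsorted libraries as log2(RPKM + 1) minus the mean of the 2 heterozygous libraries, with 1 symbol per library and genes grouped by role. Null G4 libraries (squares) and reactivated library 1 (filled triangles) lie to the right for nearly every gene. Reactivated library 2 (open triangles) lies among or left of the heterozygous circles for most.

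Among the sensing and checkpoint genes, Atr, the kinase that answers to single-stranded DNA (chromosome 9, 95857597 to 95951781), had 2.26 and 2.19 RPKM in the heterozygous pair, 4.14 and 4.47 in the null G4 pair and 3.55 and 2.36 in the reactivated pair. All null G4 values lay above all heterozygous values, and reactivated library 2 lay close to the latter. The means were 2.22 ± 0.049 and 4.30 ± 0.23 RPKM (SD, n = 2 each), and Atr rose by 0.72 on the log2(RPKM + 1) scale (SE 0.17, limma adjusted p = 0.0498, ratio of means 1.93). That call rested at the threshold. It was lost with every heterozygous or null G4 library left out (adjusted p from 0.091 to 0.298), with centring on the median of all genes (0.36, adjusted p = 0.0934), with quantile normalization, with rescaling outside mitochondrial ribosomal RNA (0.65, adjusted p = 0.0551), without the filter, without the mean trend and with a term for Y-linked expression (0.28, adjusted p = 0.623).

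Chek2, a checkpoint kinase downstream of Atm, was at 3.55 and 3.70 RPKM in the heterozygous pair, 6.01 and 7.17 in the null G4 pair, and 6.51 and 3.97 in reactivated libraries. Its null G4 values did not overlap the heterozygous ones, with a log2 difference of 0.71 that missed the threshold (SE 0.21, limma adjusted p = 0.0593). Chek1, the checkpoint kinase downstream of Atr, was lower, at 0.937 and 0.876 RPKM, then 1.46 and 1.78, then 1.56 and 0.679 in the same order. Reactivated library 2 was the lowest of the 6 for Chek1, whose null G4 difference was 0.46 (limma adjusted p = 0.123, ratio 1.79). Atm, the kinase called in by double-strand breaks, was at 4.28 and 4.13 RPKM in the heterozygous pair, 5.60 and 5.57 in the null G4 pair and 5.26 and 4.19 in reactivated libraries. The null G4 ratio for Atm, 1.33, was below the 1.38 of all tested genes, and the difference did not pass (0.34, SE 0.15, limma adjusted p = 0.122). Topbp1, an activator of Atr, was the most abundant of this group, at 8.2 and 7.75 RPKM against 13.9 and 15.5 in null G4, with a ratio of 1.85. Atrip, the partner of Atr, differed little, with a ratio of 1.29 (limma adjusted p = 0.281). Of its exons 16% overlap Trex1 on the same strand, and how shared reads were counted is not known here.

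The fork protection genes Clspn, Tipin and Timeless, which keep stalled replication forks stable and pass the signal to Chek1, had ratios of 2.3, 1.81 and 1.55. Clspn was at 1.26 and 1.2 RPKM in the heterozygous pair, 2.74 and 2.92 in the null G4 pair, and 2.40 and 1.08 in reactivated libraries. Its 3 high libraries were the null G4 pair and reactivated library 1, and its log2 difference of 0.78 missed the threshold (SE 0.22, limma adjusted p = 0.0578). Tipin showed the widest gap of the 3 between the reactivated libraries, 8.2 and 3.12 RPKM, against 4.38 and 4.44 in heterozygous crypts.

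The 7 genes that process break ends were higher in null G4 without overlap, as 74.7% of all tested genes were, with ratios from 1.48 for Rbbp8, the nuclease cofactor that starts resection, to 2.26 for Exo1, the exonuclease that extends it. The complex that binds ends moved by similar amounts, with ratios of 1.7 for Mre11a, 1.61 for Nbn and 1.51 for Rad50. The helicases Blm and Wrn, which unwind DNA behind the end, had ratios of 2.13 and 1.49. None of the 7 passed (smallest limma adjusted p = 0.0624, for Wrn). In reactivated library 2 Wrn, at 3.88 RPKM, lay above the 2.94 and 3.19 of heterozygous crypts. Rad50 did so narrowly, at 4.09 RPKM against 3.97 and 4.01.

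Brca1, the tumour suppressor that steers breaks towards recombination (chromosome 11, 101488764 to 101551955), was at 1.15 and 1.10 RPKM in the heterozygous pair, 2.47 and 2.34 in the null G4 pair, and 2.3 and 1.06 in reactivated libraries. The 2 null G4 libraries were more than 2 times the heterozygous ones (ratio 2.14), yet the log2 difference of 0.68 did not pass (SE 0.22, limma adjusted p = 0.0633). Brca2, the loader of the recombinase, had a ratio of 1.99 and Rad54l, a motor that helps strand exchange, 2.12. Bard1, the partner of Brca1, had 1.61, and Palb2, which joins Brca1 to Brca2, 1.51. Rad51c, a recombinase paralogue, had 1.57 at levels of 0.207 to 0.447 RPKM, the lowest of the set in unsorted crypts, and Rad52 differed least of the recombination genes, with 1.22. The Fanconi genes Fanca, Fancd2 and Fanci, which unhook crosslinked strands, had ratios of 2.13, 2.01 and 2.28. Exons of Fanci overlap Polg over 16% of their length, Rad54l overlaps Lrrc41 over 15.4% and Fanca overlaps Zfp276 over 10.5%, all on opposite strands; without a stated strand setting those reads cannot be told apart.

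The 6 chromatin factors around breaks had ratios from 1.09 to 1.66, and none that was tested passed. H2afx, the histone variant phosphorylated at breaks, was at 23.3 and 16.0 RPKM in the heterozygous pair, 39.3 and 26.1 in the null G4 pair, and 32.4 and 18.0 in reactivated libraries. It was the most abundant of the 38 genes in every unsorted library and spread widely within groups, and its difference of 0.7 did not pass (SE 0.33, limma adjusted p = 0.132). Trp53bp1, which holds back resection, was at 2.10 and 1.94 RPKM, then 2.12 and 2.27 in null G4, then 2.3 and 1.82 in reactivated libraries. The null G4 values of Trp53bp1 cleared the heterozygous ones by little (ratio 1.09, difference 0.083, limma adjusted p = 0.666), and 15% of its exons overlap Tubgcp4 on the opposite strand. Rif1, the effector of Trp53bp1, had a ratio of 1.56 and the ubiquitin ligase Rnf168 1.5, whereas its upstream partner Rnf8 had 1.33 and the scaffold Mdc1 1.17.

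The end-joining genes differed least as a group, with a median ratio of 1.31 over 5 genes, below the 1.38 of all tested genes. Prkdc, the kinase that bridges the ends, was at 2.67 and 2.35 RPKM in the heterozygous pair, 3.09 and 3.32 in the null G4 pair, and 3.01 and 2.43 in reactivated libraries. The groups did not overlap for Prkdc in null G4 against heterozygous crypts, but the difference was 0.26 (SE 0.15, limma adjusted p = 0.192, ratio 1.28). Lig4, the ligase that seals the break, was at 1.78 and 2.23 RPKM in the heterozygous pair and 2.17 and 2.18 in null G4 libraries, the one overlap among the 38. Its partner Xrcc4 had a ratio of 1.31. The Ku subunits stood higher: Xrcc5 had a ratio of 1.41, and Xrcc6 was at 2.89 and 3.16 RPKM against 4.93 and 5.29 in null G4, with 5.09 and 3.39 in reactivated libraries. The Xrcc6 difference was 0.6 (SE 0.18, limma adjusted p = 0.0601). Parp1, the sensor of nicks that marks proteins with ADP-ribose, was at 8.52 and 8.12 RPKM in the heterozygous pair, 12.3 and 14.7 in the null G4 pair, and 13.5 and 7.80 in reactivated libraries. The difference of 0.63 for Parp1 did not pass (SE 0.25, limma adjusted p = 0.0878, ratio 1.62).

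**Figure D2:**
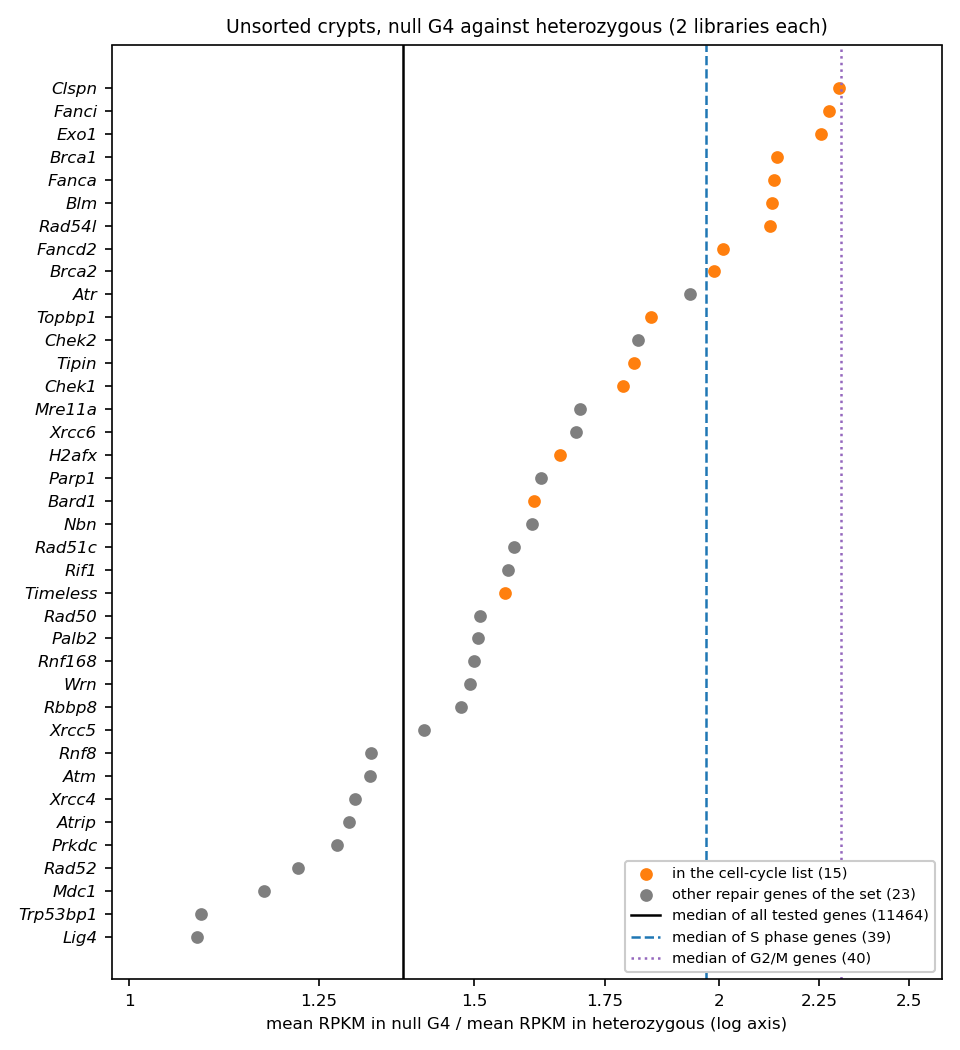
Ratio of mean RPKM in null G4 to mean RPKM in heterozygous crypts (2 libraries each, log axis) for the 38 genes in order, with vertical lines at the medians of all tested genes (1.38), S phase genes (1.97) and genes of G2 and mitosis (2.31). The 9 genes right of the S phase line are all in the cell-cycle list, and none lies right of the line for G2 and mitosis.

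The repair genes were then set beside the cycling genes. By the ratio of means 29 of 38 lay above the median of all tested genes, 9 above that of S phase genes (Brca1, Brca2, Rad54l, Blm, Exo1, Fanca, Fancd2, Fanci and Clspn) and 0 above that of genes of G2 and mitosis. Among the 23 genes outside the cell-cycle list, Atr (1.93) and Chek2 (1.82) were highest, both below the S phase median. On the log2(RPKM + 1) scale, which understates the change of low genes, the median difference was 0.52 over the 35 tested repair genes, 0.36 over all tested genes, 0.72 over S phase genes and 1.02 over genes of G2 and mitosis. All 79 cycling genes tested had positive differences and 32 passed as higher, all of them genes of G2 and mitosis. That count was 5 with centring on the median of all genes, 2 with quantile normalization and 0 with a term for Y-linked expression. It was 74 with only the null G4 and heterozygous libraries fitted. After centring the libraries on the cycling genes, 0 of 35 repair genes passed and 0 had a positive difference (median -0.34), while 1356 of 11464 genes passed, 59 of them higher. With a pseudocount of 0.1 in place of 1, 5 were positive after centring on all cycling genes and 10 after centring on the S phase genes, and 0 passed in either. Centring on the median of all genes left 27 of 35 positive and 0 past the threshold, where 322 of 11464 genes passed, 147 of them higher.

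The counts in null G4 also moved with the other libraries in the fit. The threshold was passed by 25 repair genes, where 5804 of 11204 genes passed, when only the null G4 and heterozygous libraries were fitted, and likewise by 25 when either reactivated library was left out (5722 of 11314 genes without reactivated library 1 and 5742 of 11389 without library 2). With any heterozygous or null G4 library left out, leaving 1 in its group, the repair genes had a median of 0.51 to 0.56. That of all genes was 0.31 to 0.42. With a term for Y-linked expression the threshold was passed by 0 repair genes, where 69 of 11464 genes passed, 59 of them higher. Under that term the median difference fell to 0.04, with 21 of 35 positive, beside 0.093 for all genes and 0.16 for cycling genes; the estimate leans on the reactivated libraries, the one unsorted group that holds both high and low Y-linked expression. At an unadjusted p under 0.05 there were 22 of 35 repair genes and 44.2% of all tested genes.

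Sums of cell type and position markers are given beside the repair genes. The 8 epithelial markers summed to 1300 to 1750 RPKM in heterozygous, 2160 to 2610 in null G4 and 2160 to 2350 in reactivated crypts. The 8 crypt base markers summed to 97.3 to 102, then 127 to 136, then 139 in reactivated library 1 and 98 in library 2, though Lgr5 itself was lower in null G4 (0.591 and 0.537 RPKM) than in heterozygous libraries (0.928 and 0.813). Stromal, endothelial and muscle markers (13 genes) summed to 3.82 to 4.60, 6.57 to 6.69 and 3.81 to 5.68 RPKM, with 7, 5 and 6 of the 13 below 0.1 RPKM throughout, Cdh5, Kdr, Des and Pdgfra in all 3 groups. Leukocyte markers (16 genes) summed to 5.09 to 12, 6.01 to 6.99 and 3.17 to 6.16 RPKM, with Cd4 and Emr1 below 0.1 throughout. Goblet cell markers (8 genes) summed to 4560 to 4730 RPKM in heterozygous crypts and to less, 4180 to 4240, in null G4. In the reactivated libraries they summed to 4820 and 3370. The list was split: Clca3 was lower in null G4 (131 and 133 against 770 and 724 RPKM) and Agr2 higher (710 and 736 against 438 and 500). The 8 colon region markers summed to 3080 and 5290 in the heterozygous pair, 3150 to 3460 in null G4 and 2940 to 3570 in reactivated crypts, and the 10 enterocyte markers to 102 and 309, then 77.9 to 85, then 88.8 to 119, so that heterozygous library 2 stood apart in both. The part of these markers in the differences of the repair genes was not tested.

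**Figure D3:**
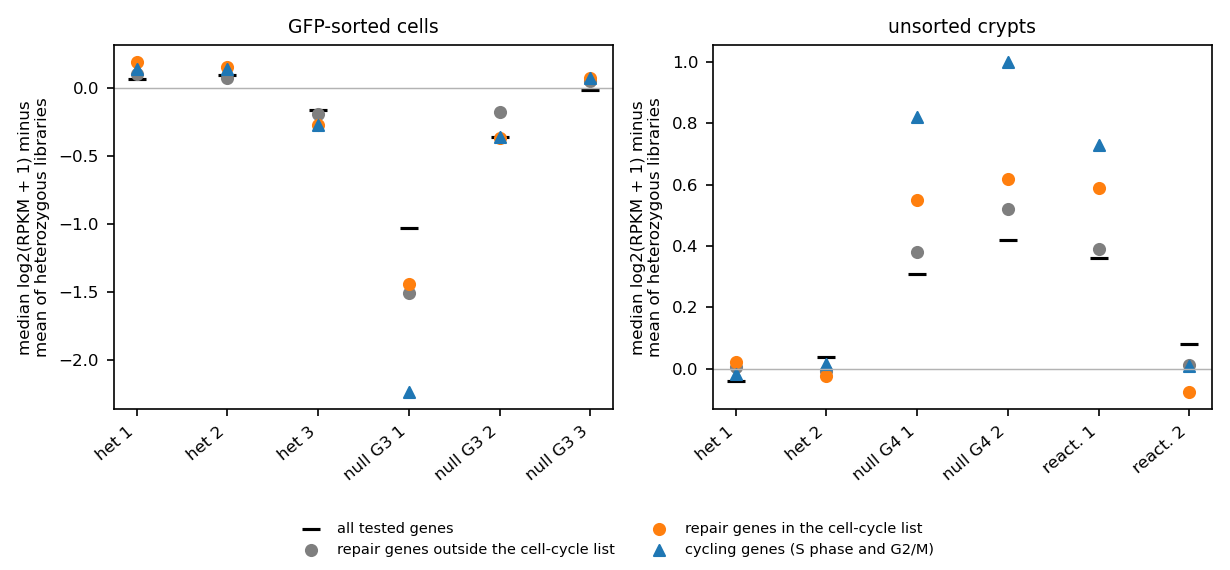
Median over genes of log2(RPKM + 1) minus the mean of the heterozygous libraries, per library, for all tested genes, repair genes inside and outside the cell-cycle list, and cycling genes; the axes of sorted cells (left) and unsorted crypts (right) differ. Null G3 library 1 lies far below the other sorted libraries (cycling genes -2.24), and the 2 reactivated libraries lie apart (cycling genes 0.73 and 0.0078).

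The next comparison asked whether reactivation returned the repair genes towards heterozygous levels; it shares the null G4 and heterozygous libraries with the one above. No repair gene passed between reactivated and null G4 crypts, where 0.0262% of all genes did, and 2 were lower at an unadjusted p under 0.05 (Atr and Clspn) beside 2.7% of all tested genes in either direction. All 38 had lower means in reactivated crypts, with a median ratio of 0.775 (0.615 for Clspn to 0.973 for Lig4) against 0.891 for all genes and 0.679 for cycling genes. The groups were apart for 19 of 38, against 25.5% of all tested genes. The smallest unadjusted p-values belonged to Atr (log2 difference -0.44, SE 0.17), Clspn (-0.53, SE 0.22), Fancd2 (-0.37, SE 0.17) and Nbn (-0.36, SE 0.19), each with a limma adjusted p of 0.833. Fancd2 was at 1.44 and 1.55 RPKM in null G4 and 1.19 and 0.713 in reactivated libraries, and Nbn at 7.70 and 8.13 against 7.32 and 4.80. In both, reactivated library 1 lay just under the null G4 pair and library 2 far under it.

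That difference between the 2 reactivated libraries held for the whole set. Library 1 lay above both heterozygous libraries for 38 of 38 repair genes (81% of all tested genes) and nearer the null G4 mean for 37 (86.6%). Library 2 lay below both null G4 libraries for 38 of 38 (78.2% of all tested genes) and nearer the heterozygous mean for 37 of 38 (67.3% of all tested genes). Its level was within the heterozygous range for 12 (31.6%, against 26.9% of all tested genes) and above both heterozygous libraries for 9 (23.7%, against 50.5%). Over the tested repair genes the median shift from heterozygous crypts was 0.42 in library 1 and -0.03 in library 2, and for the cycling genes it was 0.73 and 0.0078. Library 1 has low and library 2 high Y-linked expression, as the null G4 and the heterozygous libraries have, respectively. Each reactivated library was also fitted with the other left out. These fits rest on 1 reactivated library, which is assumed to vary like the other groups, and they were read by Y-linked class after those values were seen. Within a class, the median difference was -0.048 for library 1 against null G4, beside -0.011 for all genes and -0.14 for cycling genes. For library 2 against heterozygous crypts it was -0.03, beside 0.083 for all genes and 0.0078 for cycling genes. Across classes, the median for library 2 against null G4 was -0.52, beside -0.27 for all genes and -0.84 for cycling genes. That for library 1 against heterozygous crypts was 0.42, beside 0.36 for all genes and 0.73 for cycling genes.

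Against heterozygous crypts, reactivated ones had higher means for all but 1 of the repair genes, Rnf8 (ratio 0.984), with a median ratio of 1.28 beside 1.23 for all tested genes. No repair gene passed, where 1.27% of all genes did, and 1 reached an unadjusted p under 0.05 (Wrn) beside 14.1% of all. The groups were apart for 9 of 38, against 46.7% of all tested genes. Wrn was at 2.94 and 3.19 RPKM in the heterozygous pair and 4.31 and 3.88 in reactivated libraries (0.32, SE 0.14, limma adjusted p = 0.354). Xrcc6 (0.36, SE 0.18), Chek2 (0.4, SE 0.21) and Rnf168 (0.27, SE 0.16) followed, with limma adjusted p-values of 0.358, 0.361 and 0.378. The median over the 35 tested repair genes was 0.22, equal to that of all genes, and that of cycling genes was 0.4.

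In sorted crypt base cells no repair gene passed between null G3 and heterozygous mice, nor did any of the 8734 genes tested (0%), and 0 repair genes had an unadjusted p under 0.05 beside 1.64% of all genes. The 30 tested repair genes all had negative differences, and only 679 of all 8734 tested genes had positive ones. The median was -0.57 for the repair genes, -0.46 for all genes and -0.81 for cycling genes. Groups were apart for 1 of 38, Rbbp8, against 12.6% of all tested genes that were lower without overlap. Atrip, Palb2, Rad51c, Trp53bp1, Xrcc4, Fanca, Fancd2 and Fanci were too low to be tested. The smallest unadjusted p-values belonged to Timeless (-0.68, SE 0.37), Topbp1 (-1.13, SE 0.65), Tipin (-0.97, SE 0.57) and H2afx (-1.27, SE 0.75), each with a limma adjusted p of 0.481.

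1 library carried most of this. The library labelled null G3 replicate 1 was below every other sorted library for 38 of 38 repair genes, as for 6918 of the 8734 tested genes, with a median shift of -1.48 against -1.03 for all genes. Atm was at 4.59, 4.43 and 3.66 RPKM in heterozygous cells and 0.309, 3.79 and 4.08 in null G3 cells. Parp1 was at 13.7, 10.9 and 9.66 RPKM, then 0.802, 7.55 and 11.8, and Topbp1 at 15.8, 14.5 and 9.16, then 1.08, 7.66 and 13. In each of these genes null G3 library 1 is the low point, library 2 lies in or under the heterozygous range and library 3 lies within it.

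Library 1 was the lowest null G3 library for 38 of 38 genes, and library 2 lay below library 3 for 36, with Xrcc4 and Lig4 the exceptions. Atr was at 2.53, 2.83 and 1.59 RPKM in the 3 heterozygous libraries and 0.171, 2.20 and 2.64 in null G3 cells, and Chek1 at 2.33, 2.23 and 2.07 against 0.114, 1.58 and 2.6. Chek2 was at 4.08, 3.67 and 2.38 RPKM against 0.479, 2.70 and 4.16, and Brca1 at 1.99, 2.11 and 1.44 against 0.178, 1.18 and 2.15. Leaving library 1 aside, the null G3 values of Atr and Chek2 straddled the heterozygous mean, and Chek1, Chek2 and Brca1 lay above the heterozygous range in library 3. H2afx was at 25.3, 30.4 and 13.2 RPKM against 1.64, 12.7 and 22.3, and Prkdc at 2.09, 2.51 and 1.75 against 0.346, 1.83 and 2.34. Trp53bp1, too low to be tested, was at 0.914, 0.896 and 1.08 RPKM against 0.0943, 0.663 and 1.08. Timeless was at 2.23, 2.21 and 1.17 RPKM against 0.0621, 0.892 and 1.69, and Tipin at 7.09, 8.49 and 5.59 against 0.574, 4.04 and 7.43. Over the 38 genes null G3 library 2 was below all heterozygous libraries for 21, and library 3 was within their range for 28, above it for 8 and below it for 2.

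Without null G3 library 1 the median over the tested repair genes was -0.14 against -0.19 for all genes, 4 of 30 were positive and 0 passed. Summed crypt base markers were 7.02 RPKM in that library against 131 to 184 in the other sorted libraries, and Lgr5 was 0.121 against 3.40 to 4.74, so its values go against the label of sorted crypt base cells.

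**Figure D4:**
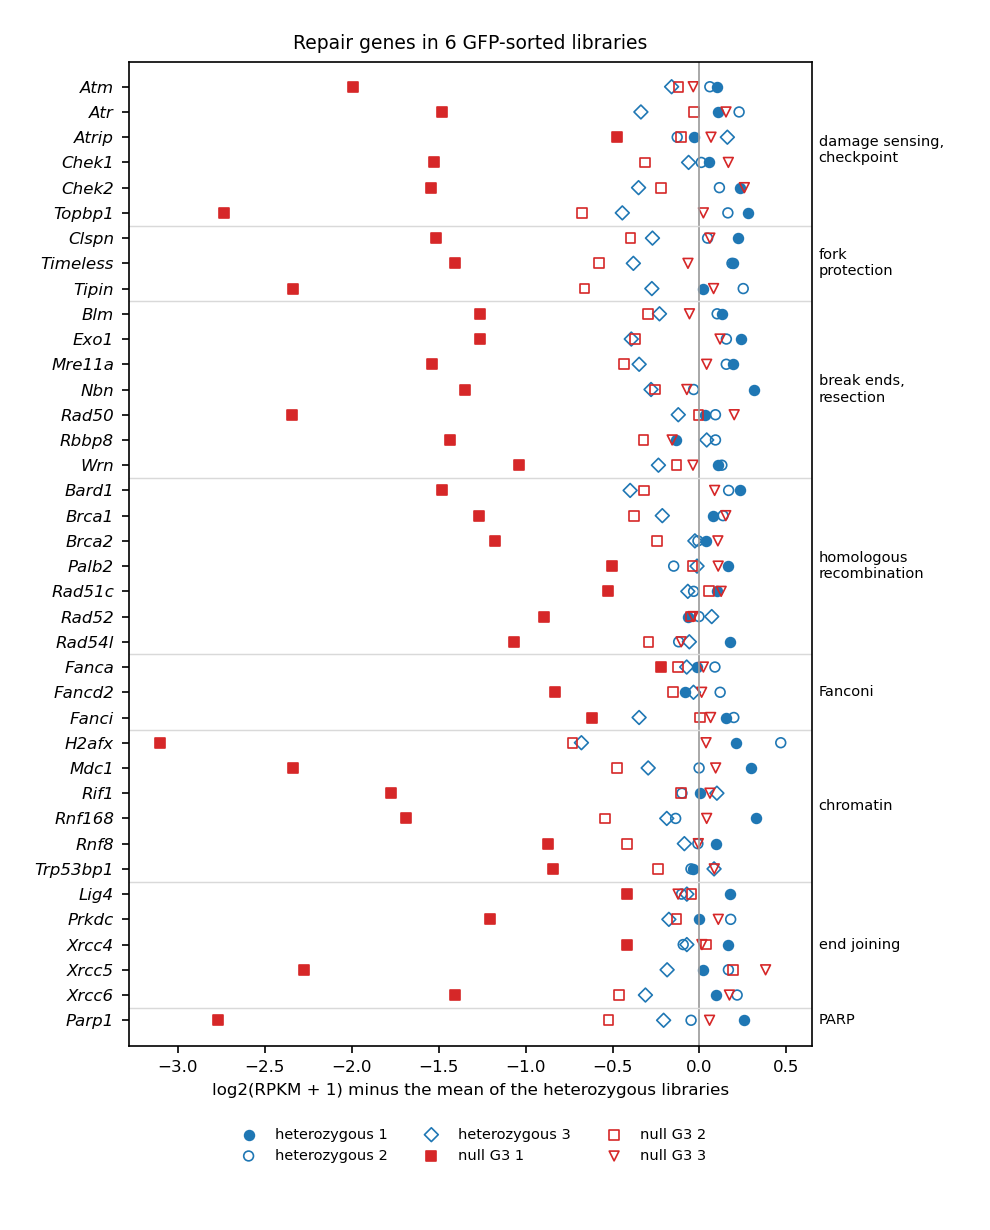
Level of each of the 38 genes in 6 libraries of GFP-sorted cells, on the log2(RPKM + 1) scale and minus the mean of the 3 heterozygous libraries, with 1 symbol per library and genes grouped by role. Null G3 library 1 (filled squares) is the lowest point for 38 of 38 genes, and library 3 (triangles) lies within the heterozygous range for 28.

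The opposite signs in sorted and unsorted cells were tested as the difference of the 2 null effects. It was positive for 10688 of 11862 genes tested, and for all 36 repair genes tested. The repair genes had a median of 1.09, beside 0.73 for all genes and 1.72 for cycling genes. None passed, where 0.303% of all genes did, and 12 of 36 had an unadjusted p under 0.05 beside 26.1% of all. The smallest unadjusted p-values were those of Fanca (0.79, SE 0.28), Rad54l (1.06, SE 0.39), Fancd2 (0.84, SE 0.32) and Blm (1.17, SE 0.45), each with a limma adjusted p of 0.19. Without null G3 library 3, which leaves library 1 as one of 2, 17 repair genes and 3537 of 11835 genes passed, and without library 1 no repair gene did, where 212 of 11824 genes passed (median 0.62 beside 0.52 for all genes). The generations differ (G3 and G4), so this difference is not one of cell type alone.

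Levels in heterozygous mice gave a description of the crypt base cells against whole crypts, without a test because the sorted and unsorted values appear to have been normalized separately. Sorted values lay above both unsorted ones for 18 of the 38 genes, below both for 4 and overlapped for 16, against 20% of all tested genes above and 54.9% below. The ratio of sorted to unsorted means had a median of 1.25 over the repair genes, 0.678 over all tested genes and 1.54 over cycling genes. Rad50 was highest, at 14.3, 15 and 12.8 RPKM in sorted and 3.97 and 4.01 in unsorted cells (ratio 3.51), followed by Mdc1 (2.86), Chek1 (2.44), Brca2 (2.28) and Bard1 (2.25). Fanca was the clearest exception, at 0.180, 0.268 and 0.133 RPKM in sorted and 1.24 and 0.991 in unsorted cells (ratio 0.174), although Fancd2 (1.12) and Fanci (0.954) of the same pathway were near level. Atrip (0.39), Trp53bp1 (0.478) and Xrcc4 (0.682) were the other genes lower in sorted cells. All 4 genes that were lower in sorted cells share exons with a neighbour, Xrcc4 over 2.66% of its exons. So do Rad54l (1.55), Rnf8 (1.64), Rbbp8 (1.22), Brca2 (2.28) and Parp1 (1.37), which were higher there. Atr, Fancd2, Fanci, H2afx, Mre11a, Palb2, Timeless and Xrcc6, whose sorted and unsorted values overlapped, share exons as well. Such sharing is not particular to the lower genes, and its part was not tested. Atm, Atr and Rif1 had ratios of 1.01, 1.04 and 1.03.

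A wider list of 104 other repair genes served as a comparison for the pathway. In null G4 against heterozygous crypts 1 of 89 tested passed as higher, beside 4.97% of all tested genes, and 0 passed as lower. Of the 89, 85 had positive differences, beside 9867 of all 11464 tested genes. The median difference was 0.35, beside 0.36 for all genes. The gene that passed was Parp3, a relative of Parp1 that acts at double-strand breaks. Parp3 was at 1.53 and 1.5 RPKM in the heterozygous pair and 5.91 and 6.52 in the null G4 pair. Reactivated crypts had 6.64 and 4.64 RPKM of it. Parp3 rose by 1.52 in null G4 (SE 0.18, limma adjusted p = 0.00344, ratio 4.11) and by 1.38 in reactivated crypts (adjusted p = 0.00809, ratio 3.73), and both reactivated libraries lay nearer null G4 than heterozygous values, as they did for Wrn among the 38 genes. With the term for Y-linked expression its differences were 1.08 (adjusted p = 0.0649) and 1.17 (adjusted p = 0.0145), without the filter the adjusted p-values were 0.1 and 0.163, and after centring on cycling genes 0.0528 and 0.0655. Polh, a polymerase that copies past lesions (0.67, adjusted p = 0.0504), and Smc6, of a complex that resolves recombination structures (0.7, adjusted p = 0.0512), came next. Between reactivated and null G4 crypts 0 of 89 passed, against heterozygous crypts 1 did (Parp3), and in sorted cells 0 of 56 did.

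In null G4 crypts 9867 of 11464 tested genes had positive differences, and so did 16 of 19 tested p53 target genes. Past the threshold as higher was 1, Phlda3, an inhibitor of Akt signalling, beside 4.97% of all tested genes. Phlda3 entered the test with both heterozygous libraries under 1 RPKM. It was at 0.466 and 0.355 RPKM in the heterozygous pair and 1.43 and 1.32 in the null G4 pair. Reactivated libraries had 3.11 and 2.18 RPKM of it. Phlda3 rose by 0.75 in null G4 (limma adjusted p = 0.045, ratio 3.35) and by 1.36 in reactivated crypts (adjusted p = 0.00789, ratio 6.43), and both reactivated values exceeded both null G4 values (0.61, SE 0.17, adjusted p = 0.833). The null G4 call of Phlda3 was lost with any heterozygous or null G4 library left out (adjusted p from 0.0877 to 0.197), without the filter, with median, quantile or cycling-gene scaling, with rescaling outside mitochondrial ribosomal RNA (adjusted p = 0.0531) and with the term for Y-linked expression (0.38, adjusted p = 0.562). The call in reactivated crypts was lost without the filter (adjusted p = 0.164) and with centring on cycling genes (0.267). The list's median difference in null G4 was 0.33, beside 0.36 for all genes, and in reactivated against null G4 crypts it was 0.027, beside -0.14.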

How the data were processed

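RPKM values deposited by the authors, 1 table of 28793 genes by 12 columns, were used as given; all 12 columns were mapped to samples by name. STAR 2.3.0e and the build mm10 are listed, without a role, in the submitters' processing notes. RNA came from the Qiagen RNeasy Mini kit and libraries from the TruSeq RNA kit, per the labels' protocols. The counting tool, its strand setting and the gene annotation were not given in the sources used here. Coordinates and exon overlaps come from GENCODE M21 (97.9% of identifiers found). Sorted and unsorted columns list different genes (25686 and 27658) and appear to have been normalized separately, so levels were not tested between them.

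Here log2(RPKM + 1) was fitted with limma 3.58.1 in R 4.3.3 (mean trend, two-sided, Benjamini-Hochberg over all genes tested). Genes were tested if 3 sorted libraries, 2 unsorted ones or, for the difference of null effects, 2 of all 12 reached an RPKM of 1. The sorted libraries were fitted together, the unsorted ones together, and all 12 for the difference of null effects. On simulated data, with noise drawn for each gene alone, the unsorted fits recovered most of the planted changes of 2 log2 units. The largest null G4 difference of a repair gene was 0.81, so that recovery says nothing about changes of this size. Changes of 1 log2 unit were planted too, and their recovery is not given here. On such data the sorted fit made no calls and that of the difference of null effects few, so a lack of calls in those 2 says little. Python 3.11.15, pandas 2.3.3, numpy 2.4.6 and matplotlib 3.10.9 were used for the rest.

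The 38 genes, the lists and the rule for naming were chosen with earlier results of these data known. The rule was to describe all 38 by role, with Atm, Atr, Chek1, Chek2, Brca1, Trp53bp1, H2afx, Prkdc and Parp1 in every library, and to name in each comparison the genes that passed or, where fewer than 4 did, the 4 of smallest unadjusted p. From the other repair genes and p53 targets at most 3 per comparison were to be named. Other genes given with values by library were chosen after their values were seen.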

Additional observations from a re-analysis of the deposited data

Results flagged for a closer look

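Parp3, from the wider repair list, had a null effect that differed between unsorted and sorted cells. The difference of the 2 effects was 1.78 on the log2(RPKM + 1) scale (SE 0.28, limma adjusted p = 0.0245, all 12 libraries fitted). Parp3 was at 0.866, 0.839 and 0.623 RPKM in sorted heterozygous cells and 0.424, 0.373 and 0.671 in null G3 cells, all under 1 RPKM, while the ratio of null G4 to heterozygous means was 4.11 in unsorted crypts. The adjusted p of this difference was 0.163 with a pseudocount of 0.1, 0.346 after median centring, 0.887 after centring on cycling genes, 0.499 with a term for Y-linked expression and 0.129 with the replicate block. It was 0.0291 without the filter and 0.0329 without the mean trend, and from 0.0683 to 0.169 with any 1 heterozygous or null G4 library, or null G3 library 2, left out. The main fit includes null G3 library 1 (0.424 RPKM), whose markers go against its label of sorted crypt base cells. The null groups are of different generations, and the cause of the difference was not tested.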

How the results depend on the processing

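In unsorted null G4 against heterozygous crypts, 1 repair gene was higher past the threshold. The count was 0 without the filter, with median centring, with quantile normalization, with cycling-gene centring, with a term for Y-linked expression and without the mean trend, and 1 with a pseudocount of 0.1. In that order 16, 147, 135, 59, 59, 680 and 649 of all tested genes passed as higher. Added after seeing the data were 3 settings: cycling-gene and S-phase-gene centring, both with a pseudocount of 0.1, and rescaling without mitochondrial ribosomal RNA. There 61, 63 and 362 of all tested genes passed as higher. The count of repair genes was 0 in each. It was 25 with only the 2 groups fitted, and from 0 to 25 with 1 library left out. With the replicate block it was 5 (Brca1, Chek2, Atr, Fanca and Clspn), where 1317 of 11464 genes passed, 1160 of them higher. The replicate numbers are shared only as numbers: same-numbered deviations correlated at 0.219 between heterozygous and null G4, -0.124 between null G4 and reactivated, and from -0.19 to 0.0533 in sorted cells. The block changed no count of repair genes in the other comparisons. With the reactivated numbers crossed, added after seeing the data because of the negative correlation, the block gave 0 repair genes higher and 0 lower in reactivated against null G4 crypts. With 1 library left out, lower genes in reactivated against null G4 crypts numbered 0 to 3, higher genes in reactivated against heterozygous crypts 0 to 16, and higher genes in the difference of null effects 0 to 17.

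Among named genes, differences that were positive in null G4 crypts turned negative as follows. With median centring, Atm had -0.02, Trp53bp1 -0.28 and Prkdc -0.1, and with quantile normalization -0.035, -0.17 and -0.031. With cycling-gene centring the values were Atr -0.14, Clspn -0.08, Chek2 -0.15, Xrcc6 -0.26, Atm -0.52, Chek1 -0.4, Brca1 -0.18, Trp53bp1 -0.78, H2afx -0.16, Prkdc -0.6, Parp1 -0.23, Polh -0.19, Smc6 -0.16 and Phlda3 -0.11. With the term for Y-linked expression they were Chek1 -0.15, Brca1 -0.0024, Trp53bp1 -0.15, H2afx -0.12 and Parp1 -0.092. With cycling-gene centring and a pseudocount of 0.1 they were Atr -0.11, Chek2 -0.19, Xrcc6 -0.29, Atm -0.63, Chek1 -0.26, Trp53bp1 -0.92, H2afx -0.31, Prkdc -0.69, Parp1 -0.34, Polh -0.17 and Smc6 -0.23. With S-phase-gene centring they were Chek2 -0.047, Xrcc6 -0.15, Atm -0.49, Chek1 -0.12, Trp53bp1 -0.77, H2afx -0.17, Prkdc -0.54, Parp1 -0.2, Polh -0.023 and Smc6 -0.085. In the other comparisons cycling-gene centring turned Timeless in sorted cells to 0.14. It turned Atr, Fancd2 and Nbn in reactivated against null G4 crypts to 0.044, 0.12 and 0.12, and Wrn, Xrcc6 and Rnf168 against heterozygous crypts to -0.052, -0.013 and -0.11. In the difference of null effects it turned Fanca, Rad54l, Fancd2 and Blm to -0.87, -0.59, -0.82 and -0.49, and median centring turned Fanca to -0.0087. Centring sets the reference by construction, and the cause of the other changes was not tested.

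Groups hold 2 unsorted or 3 sorted libraries. The deposited values are not counts, so the counting error of genes at low RPKM is not known.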
